A study of Ogataea parapolymorpha with 16 samples.

Results

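In the methylotrophic yeast Ogataea parapolymorpha, 33 genes of 5408 in the files had transcript levels that were low in batch cultures on excess glucose and about equally high in 3 glucose-limited cultures, in the complex I mutant IMD010 as well as in the wild type CBS11895. These genes were selected on their measured values. In each strain, the batch group mean had to lie at least 2 on the log2 scale (4-fold) below the lowest of the retentostat and the chemostat groups, a distance called the margin here, and the 3 glucose-limited groups had to lie within a range below 1 (2-fold). Of the 5408 genes, 5232 had a mean of at least 10 FPKM (fragments scaled to gene length and library size) in at least 1 group and could be considered. The margin was passed by 113 genes, and 80 of these missed the limit on the range. The 33 genes left were 0.631% of the 5232. Since the contrast between batch and glucose-limited cultures chose the genes, their values in it are given as a description without a test.

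Yeasts that find plenty of glucose repress many genes for the uptake and breakdown of other carbon sources, for gluconeogenesis and for respiration, a control known as glucose catabolite repression. In a glucose-limited chemostat the residual sugar is so low that this repression is relieved, and a retentostat, in which the cells are held back while medium flows through, brings the same limitation to growth close to zero. The retentostat and the chemostats thus differ in growth rate. The study's methods also give retentostats another feed, base for pH control and supply of trace elements and vitamins. Batch cultures differ from all of them in both growth rate and sugar concentration. In this design these 2 differences cannot be told apart for any of the genes.

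IMD010 carries a single-nucleotide insertion in NUBM, the gene of the NADH-binding subunit of respiratory complex I, and was derived from CBS11895 as 1 clone, which stands for the mutant in all comparisons. Both strains were grown aerobically at 30 °C and pH 5.0 with glucose as carbon source, in retentostats fed with 5 g per L glucose (sampled late, at 0.001 per h), in chemostats with 7.5 g per L at dilution rates of 0.025 and 0.1 per h, and in batch with 7.5 g per L (0.37 per h). Polyadenylated RNA of 2 independent cultures per strain and condition was sequenced, which gave 16 samples in 8 groups. A value is the relative abundance of a transcript in its library, and the amount of mRNA per cell was not measured.

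A value corresponded to a whole number of reads, scaled by a factor of the gene and by the total of the library, for 5394 of the 5408 genes. Of the others, 8 were at 0 in all samples and 6 gave no whole numbers. From these steps the reads were recovered (99.99% of the values above 0 came within 0.01 of a whole number). Their sum was 16522183 to 20898682 reads per sample. The NUBM transcript was present in all 16 samples, with 1432 to 3874 FPKM in IMD010 and 1735 to 2967 FPKM in CBS11895, which does not check the strain labels, since the insertion leaves the gene in place. The 2 cultures of IMD010 at 0.1 per h stood apart from each other. Their log2 difference had an SD of 0.888 over the 5232 genes, against 0.135 to 0.281 between the 2 cultures of the other groups. The CBS11895 batch libraries were low in short transcripts relative to the glucose-limited libraries of that strain. The median glucose-limited minus batch difference of the 1066 considered genes of up to 700 bp was 0.06 in IMD010 and 1.22 in CBS11895, while that of the 4166 longer genes was -0.03 in IMD010 and -0.23 in CBS11895.

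The 12 glucose-limited samples were above all 4 batch samples for each of the 33 genes, a pattern shared by 10.9% of the 5232 genes and close to what the rule demands. The median fold of the glucose-limited group means over the batch mean was 14.6 in IMD010 (5.52 to 462) and 8.73 in CBS11895 (5.08 to 594). On the log2 scale the median difference was 3.76 in IMD010 and 3.02 in CBS11895, against -0.02 in IMD010 and -0.003 in CBS11895 over all 5232 genes. A larger difference was seen in IMD010 than in CBS11895 for 23 of the 33 genes. Replicate cultures differed little beside these distances. The median log2 difference within a group over the 33 genes ranged from 0.056 to 0.373 in the 8 groups, and the largest single value was 1.16, in the IMD010 chemostats at 0.1 per h.

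**Figure D1:**
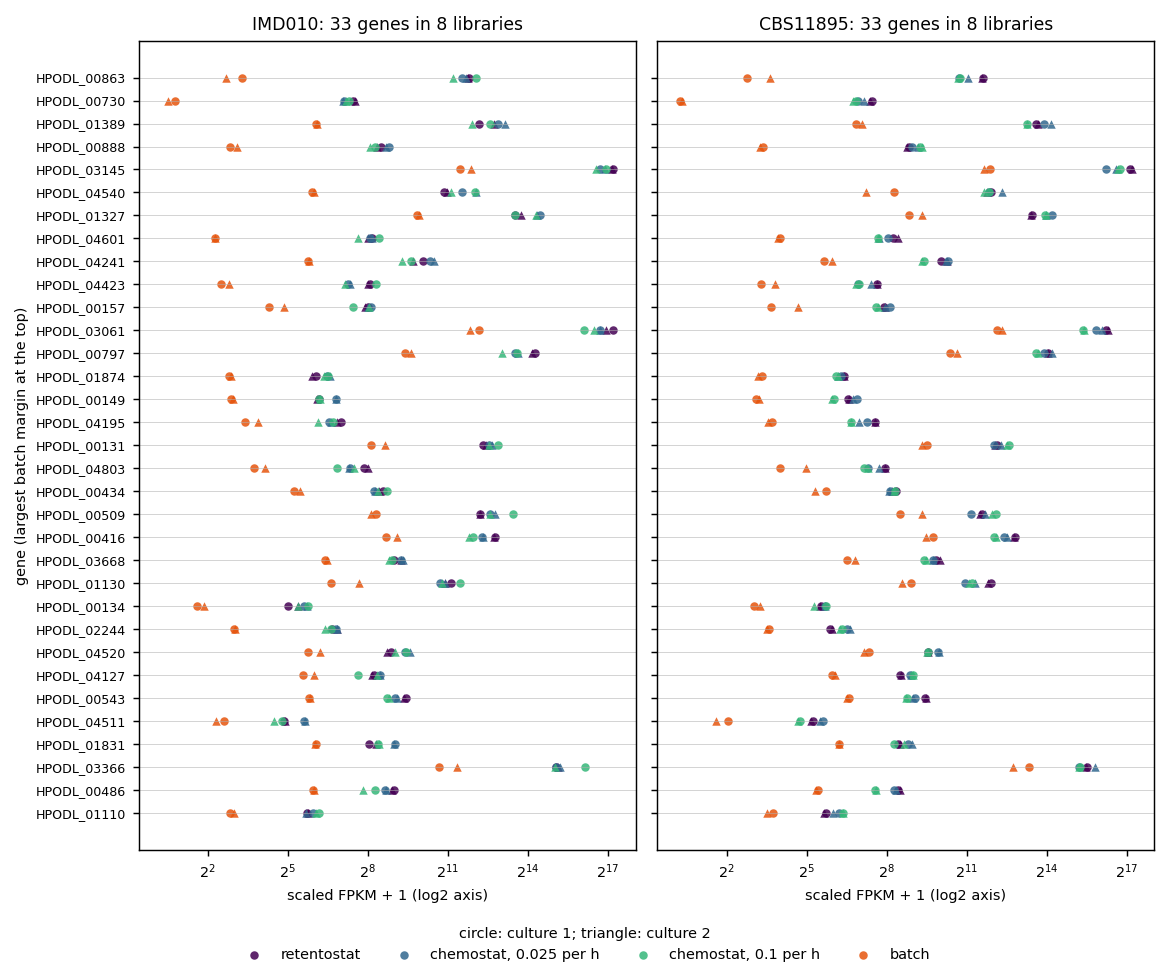
Scaled FPKM + 1 of the 33 genes (rows) in the 8 libraries of IMD010 (left) and CBS11895 (right) on a log2 axis, coloured by culture condition, with circles for culture 1 and triangles for culture 2. The batch points lie to the left of all glucose-limited points in every row, and the distance is largest in the top row, HPODL_00863, with 5.48 to 11.5 FPKM in batch and 1636 to 4256 FPKM under glucose limitation.

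The 33 genes took 2.53% to 3.38% of the recovered reads in the IMD010 glucose-limited libraries and 0.135% and 0.167% in the IMD010 batch libraries. In CBS11895 they took 2.48% to 2.94% of the reads under glucose limitation and 0.316% and 0.246% in batch. Much of this share came from 1 gene, HPODL_03366, which held 25.9% to 46.8% of the reads of the 33 in the IMD010 glucose-limited libraries and 28.6% and 36.2% in IMD010 batch, against 33.3% to 39.9% and 63.3% and 52.6% in CBS11895. The other 32 genes together took 1.80% to 2.07% of all reads under glucose limitation and 0.0963% and 0.107% in batch in IMD010, and 1.65% to 1.93% and 0.116% and 0.117% in CBS11895. Without HPODL_03366 the batch shares of the strains were thus closer to each other.

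**Figure D2:**
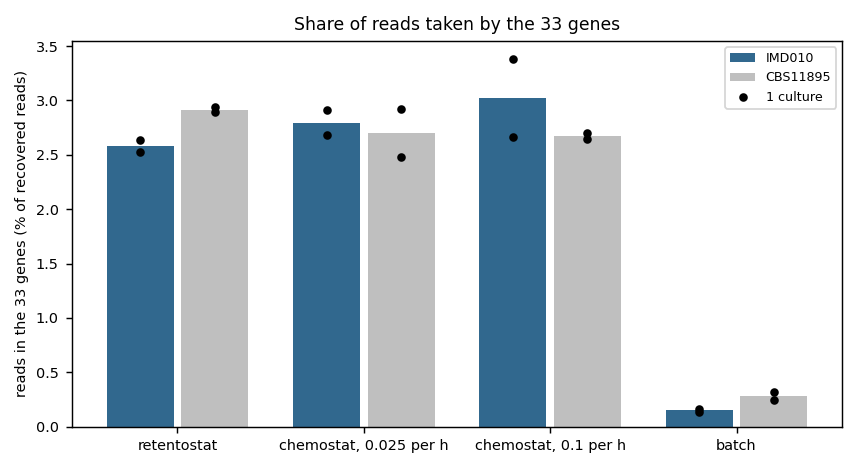
Share of the recovered reads that fell in the 33 genes (bars, mean of 2 cultures; points, single cultures), by culture condition from the lowest to the highest growth rate, for IMD010 (blue) and CBS11895 (grey). All 12 glucose-limited libraries lie at 2.48% or higher, and the 4 batch libraries lie at 0.316% or lower.

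Product names were used for 2110 genes (39.0% of all genes), and 19 of the 33 carried one: 14 named a function and 5 read hypothetical protein. The other 14 genes are given by locus tag only. Among the 14 with a function were enzymes for polyols and amino acids, carriers for sugars and polyols, enzymes of central carbon metabolism and a glycogen-related regulator. Levels of different genes are compared below only as RPKM, the recovered reads scaled here to annotated length and library size, since the authors' divisor of a gene was not its annotated length.

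L-arabinitol 4-dehydrogenase, which in fungi oxidises L-arabinitol to L-xylulose on the path from L-arabinose to the pentose phosphate pathway, had the largest margin of all (HPODL_00863, chromosome III, 1228828 to 1229919 of the CBS11895 (DL-1) RefSeq assembly). In IMD010 it had 3518 and 3489 FPKM in retentostats, 2930 and 3306 FPKM at 0.025 per h, 4256 and 2327 FPKM at 0.1 per h, and 8.84 and 5.48 FPKM in batch. The CBS11895 cultures gave 3119 and 3049 FPKM in retentostats, 1666 and 2100 FPKM at 0.025 per h, 1731 and 1636 FPKM at 0.1 per h, and 5.74 and 11.5 FPKM in batch. The transcript was close to absent in batch, where 3 to 6 reads were found per library, and it was present at 1044 reads or more in every glucose-limited library. The fold over batch was 462 in IMD010 (exact Poisson interval at 95% of the batch reads, 251 to 962) and 258 in CBS11895 (136 to 564). These intervals cover counting error only.

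Another polyol enzyme was the putative sorbitol dehydrogenase HPODL_00131 (chromosome I, 261470 to 262564), of the kind that interconverts sorbitol and fructose. Its IMD010 means were 5292 ± 257 FPKM in retentostats, 6179 ± 415 FPKM at 0.025 per h, 6736 ± 1207 FPKM at 0.1 per h and 336 ± 83.7 FPKM in batch (SD, n = 2 each). The CBS11895 means were 4379 ± 223 FPKM in retentostats, 4522 ± 583 FPKM at 0.025 per h, 5950 ± 288 FPKM at 0.1 per h and 677 ± 64.9 FPKM in batch (SD, n = 2 each). Its mean was highest at 0.1 per h in both strains, within a range of 0.35 in IMD010 and 0.44 in CBS11895. In IMD010 this rested on culture 1 (7590 FPKM), as culture 2 (5883 FPKM) lay below both cultures at 0.025 per h (5885 and 6472 FPKM). A list of 11 genes for the use of other carbon sources, drawn up from product names, held these 2 of the 33 and no further gene past the margin. The median glucose-limited minus batch difference over this list was 0.53 in IMD010 and -0.39 in CBS11895.

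Of 16 genes listed under sugar transport, 4 were among the 33. The D-galactonate transporter HPODL_00157 (chromosome III, 3698 to 5161) had 256 and 236 FPKM in IMD010 retentostats, 277 and 256 FPKM at 0.025 per h, 174 and 259.5 FPKM at 0.1 per h, and 18.9 and 27.9 FPKM in batch. In CBS11895 it had 238 and 244 FPKM in retentostats, 279 and 241 FPKM at 0.025 per h, 193 and 202 FPKM at 0.1 per h, and 11.9 and 24.8 FPKM in batch. It was among the most level of the 33 genes, with a range of 0.30 in IMD010 and 0.40 in CBS11895. The substrate in each of these names is an annotation by similarity, and transport was not measured.

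The myo-inositol transporter HPODL_01130 (chromosome VI, 68193 to 70016) averaged 2066 ± 212 FPKM in IMD010 retentostats, 1773 ± 177 FPKM at 0.025 per h, 2302 ± 751 FPKM at 0.1 per h and 148 ± 73.2 FPKM in batch (SD, n = 2 each). In CBS11895 it averaged 3708 ± 202 FPKM in retentostats, 2254 ± 434 FPKM at 0.025 per h, 2266 ± 154 FPKM at 0.1 per h and 430.2 ± 74.4 FPKM in batch (SD, n = 2 each). The lactose permease HPODL_00134 (chromosome I, 264800 to 266341) was the least abundant of the 33 per length under glucose limitation, at 3.98 to 6.34 RPKM in the 6 glucose-limited group means, with 8 to 26 reads per batch library. The fourth gene of the list, HPODL_01874, is a glucose-6-phosphate 1-epimerase (hexose-6-phosphate mutarotase), an enzyme that interconverts the anomers of glucose 6-phosphate and no transporter. Its name matched the word hexose. It had 59.5 to 94.8 FPKM in the 6 IMD010 glucose-limited samples and 5.94 and 6.41 FPKM in batch, against 68.3 to 83.4 FPKM and 9.18 and 8.15 FPKM in CBS11895. None of the other 12 genes of the transport list passed the margin, and the median difference over the 16 was 1.21 in IMD010 and 0.17 in CBS11895.

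In central carbon metabolism, isocitrate dehydrogenase HPODL_01327 (chromosome VI, 397790 to 399016), which forms 2-oxoglutarate, was the only 1 of 9 listed tricarboxylic acid cycle genes among the 33 or past the margin. It was listed by its name, which gives no cofactor or compartment, so its place in the cycle is not known here. IMD010 had 11714 and 13484 FPKM in retentostats, 22233 and 20850 FPKM at 0.025 per h, 11687 and 19926 FPKM at 0.1 per h, and 909.6 and 957 FPKM in batch. CBS11895 had 11000 and 10862 FPKM in retentostats, 18621 and 16155 FPKM at 0.025 per h, 15701 and 15889 FPKM at 0.1 per h, and 452 and 635 FPKM in batch. The chemostats at 0.025 per h were the highest in both strains. The median difference of the 9 genes was 0.37 in IMD010 and -0.65 in CBS11895.

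Phosphoenolpyruvate carboxykinase (HPODL_00509, chromosome III, 611525 to 613207), which commits oxaloacetate to gluconeogenesis, was the only 1 of 12 listed genes of the glyoxylate cycle, gluconeogenesis and C2-C3 assimilation among the 33. In IMD010 it had 4766 and 4756 FPKM in retentostats, 6055 and 6889 FPKM at 0.025 per h, 10987 and 6032 FPKM at 0.1 per h, and 319 and 278 FPKM in batch. In CBS11895 it had 3006 and 2882 FPKM in retentostats, 2284 and 3331 FPKM at 0.025 per h, 4379 and 3970 FPKM at 0.1 per h, and 362 and 648 FPKM in batch. Its mean was highest at 0.1 per h in both strains. In IMD010 this rested on culture 1, as culture 2 lay below both cultures at 0.025 per h. The gene fell outside the rule when the second IMD010 culture at 0.1 per h was left out. Isocitrate lyase (HPODL_00142), the first enzyme of the glyoxylate cycle, also passed the margin (2.05) but was far from level, with a range of 4.64. Its IMD010 means were 3740 FPKM in retentostats, 474 FPKM at 0.025 per h, 149 FPKM at 0.1 per h and 15.9 FPKM in batch, and its CBS11895 means were 803 FPKM, 532 FPKM, 221 FPKM and 52.6 FPKM in the same order of conditions. The third gene of this list past the margin was HPODL_00007 (margin 3.26, range 1.20), annotated as an aryl-alcohol dehydrogenase and listed because of its name. The median difference over the 12 genes was 2.28 in IMD010 and 1.13 in CBS11895. The carboxykinase and the lyase thus shared the low batch level and not the level course under glucose limitation.

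The protein annotated as protein phosphatase 1 regulatory subunit 3C (HPODL_00797, chromosome III, 1121347 to 1122783), a subunit that in mammals directs the phosphatase to glycogen, was highest in retentostats in IMD010. In CBS11895 its retentostats (16968 and 16667 FPKM) overlapped with its chemostats at 0.025 per h (15103 and 18933 FPKM). Its means were 18985 ± 1062 FPKM, 12244 ± 606 FPKM, 10269 ± 2681 FPKM and 729.8 ± 82.5 FPKM in IMD010 from retentostat to batch (SD, n = 2 each). In CBS11895 they were 16818 ± 213 FPKM, 17018 ± 2708 FPKM, 12694 ± 516 FPKM and 1447 ± 193 FPKM (SD, n = 2 each). Glycogen phosphorylase 1 (HPODL_01450), which breaks glycogen down, passed the margin at 2.90 but missed the limit on the range at 1.17, and was highest in the retentostats of both strains (4288 FPKM in IMD010 and 3502 FPKM in CBS11895).

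Ornithine--oxo-acid transaminase (HPODL_00888, chromosome III, 1269325 to 1270608) links ornithine from arginine breakdown to glutamate semialdehyde. It had 355 and 323 FPKM in IMD010 retentostats, 442 and 414 FPKM at 0.025 per h, 306 and 271 FPKM at 0.1 per h, and 6.19 and 7.52 FPKM in batch. CBS11895 had 456 and 429 FPKM in retentostats, 497 and 573 FPKM at 0.025 per h, 605 and 638 FPKM at 0.1 per h, and 9.27 and 8.64 FPKM in batch. The order of the conditions differed between the strains, with the lowest glucose-limited level at 0.1 per h in IMD010 and the highest there in CBS11895. Each batch library held 13 to 17 reads of it. None of 35 listed genes of nitrogen source use passed the margin, a list that did not hold this transaminase.

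The other genes with a named function, described after their values were seen, had margins of 2.17 to 2.84. The mitochondrial phosphate carrier protein 3 (HPODL_00149), which brings phosphate into the matrix for ATP synthesis, had 68.2 to 111 FPKM under glucose limitation and 6.42 and 6.74 FPKM in batch in IMD010, and 61.7 to 117 FPKM and 7.53 and 8.20 FPKM in CBS11895. The alpha-mannosidase HPODL_00434, a hydrolase of mannose-containing glycans, was among the most level, with ranges of 0.31 in IMD010 and 0.21 in CBS11895 and folds over batch of 8.72 in IMD010 and 6.53 in CBS11895. The putative 2-hydroxyacyl-CoA lyase HPODL_00543, an enzyme of fatty acid alpha-oxidation in mammals, was highest in the retentostats of both strains, with folds of 9.87 in IMD010 and 5.94 in CBS11895. The fluconazole resistance protein 1 (HPODL_01831), named after resistance to an antifungal drug, had the lowest fold of this group in CBS11895, 5.35, and 5.93 in IMD010.

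Among the genes with no named function, HPODL_00730 (chromosome III, 1008634 to 1009173) had the second largest margin of the 33. IMD010 had 172 and 184 FPKM in retentostats, 136 and 132 FPKM at 0.025 per h, 158 and 146 FPKM at 0.1 per h, and 0.712 and 0.425 FPKM in batch. CBS11895 had 173 and 164 FPKM in retentostats, 120.1 and 143 FPKM at 0.025 per h, 115 and 107 FPKM at 0.1 per h, and 0.198 and 0.264 FPKM in batch. Only 3 to 14 reads per batch library stood behind these values, and the fold over batch was 271 in IMD010 (Poisson interval 181 to 428) and 594 in CBS11895 (288 to 1480).

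HPODL_01389 (chromosome VI, 496004 to 497269), also annotated as a hypothetical protein, was the third by margin. IMD010 had 4622 and 6726 FPKM in retentostats, 7498 and 8907 FPKM at 0.025 per h, 6103 and 3837 FPKM at 0.1 per h, and 66.4 and 66.9 FPKM in batch. CBS11895 had 12501 and 13136 FPKM in retentostats, 15361 and 18040 FPKM at 0.025 per h, 9712 and 9727 FPKM at 0.1 per h, and 115 and 133 FPKM in batch. Both IMD010 cultures lay below both CBS11895 cultures in each of the 4 conditions. The remaining hypothetical proteins were HPODL_00416, highest in retentostats in both strains with margin 2.45, and the short genes HPODL_00486 (450 bp, margin 2.10) and HPODL_01110 (654 bp, margin 2.04), which had the smallest margins of the 33. In all, 5 of the 692 listed genes without a named function were among the 33, and 30 passed the margin.

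The 14 genes given by locus tag only included the most abundant of the 33. HPODL_03145 (chromosome VII, 1336814 to 1337902) had 95564 to 148676 FPKM in the 6 IMD010 glucose-limited samples and 2770 and 3772 FPKM in batch, and 76913 to 147834 FPKM and 3753 and 3217 FPKM in CBS11895. Per length it reached 3381 to 3881 RPKM under glucose limitation in IMD010 and 2437 to 4120.2 in CBS11895. HPODL_03366 (chromosome IV, 610169 to 611797) had the highest level per length of all 33, at 4257 to 7483 RPKM in IMD010 and 5885 to 6125 in CBS11895, and even in batch it held 304 in IMD010 and 1011 in CBS11895. HPODL_03061 (chromosome VII, 1187960 to 1189054) was highest in the retentostats of both strains, with 148789 and 124811 FPKM in IMD010 and 77105 and 80161 FPKM in CBS11895, and its batch values were 4584 and 3655 FPKM in IMD010 and 4499 and 5052 FPKM in CBS11895. The batch level of a gene was therefore not in all cases close to zero. Over 100 reads were found in every batch library for 24 of the 33 genes, and under 10 reads in at least 1 batch library for 3.

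HPODL_04540 (chromosome II, 34408 to 36024) had 1844 and 1989 FPKM in IMD010 retentostats, 2982 and 4287 FPKM at 0.025 per h, 4112 and 2202 FPKM at 0.1 per h, and 58.6 and 62.9 FPKM in batch. In CBS11895 it had 3858 and 3493 FPKM in retentostats, 3648 and 5143 FPKM at 0.025 per h, 3652 and 3240 FPKM at 0.1 per h, and 308 and 149 FPKM in batch. The CBS11895 batch cultures were apart from each other by more than 2-fold, and both were above the IMD010 ones. HPODL_04601 (chromosome II, 130884 to 132938) was the most level gene in IMD010, with a range of 0.04 between group means of 269 to 276 FPKM, and a fold over batch of 71.4, against a range of 0.65 and a fold of 17.1 in CBS11895. HPODL_04241 (chromosome V, 843408 to 844187) and HPODL_04423 (chromosome V, 1154134 to 1154811) completed the 10 largest margins. The first had folds of 18.4 in IMD010 and 18.3 in CBS11895, and the second had 40.8 in IMD010 and 14.2 in CBS11895. Folds of the further 7 genes without a name, namely HPODL_04195, HPODL_04803, HPODL_03668, HPODL_02244, HPODL_04520, HPODL_04127 and HPODL_04511, lay between 5.52 and 14.6 in IMD010 and between 5.50 and 13.7 in CBS11895.

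**Figure D3:**
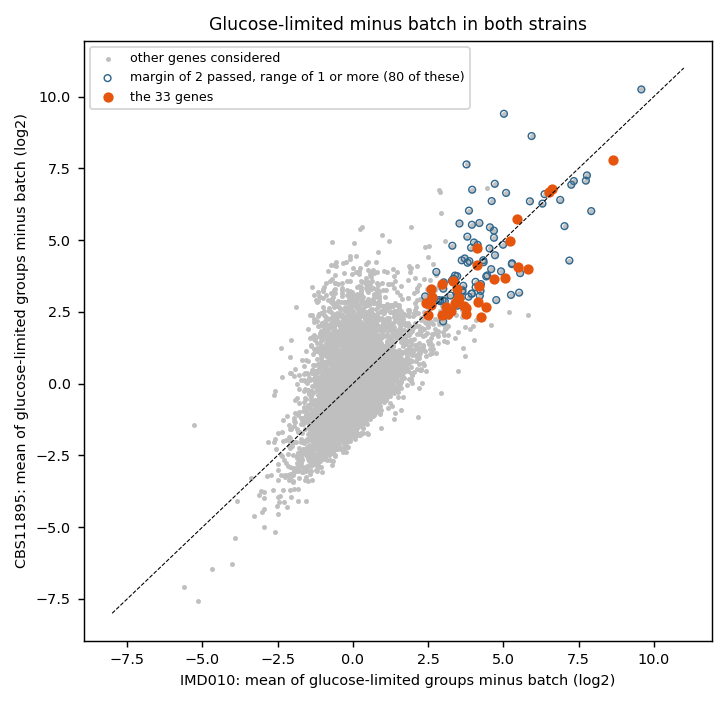
Mean of the 3 glucose-limited groups minus batch (log2 of scaled FPKM + 1) in IMD010 (horizontal axis) and CBS11895 (vertical axis) for the 33 genes (orange), the 80 genes that passed the margin but not the limit on the range (blue rings) and the other genes considered (grey), with the line of equality dashed. The 33 genes lie at the upper right by choice, from 2.43 to 8.66 in IMD010 and from 2.34 to 7.80 in CBS11895, and 23 of them lie below the line.

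Within the limit set by the rule, the group at 0.1 per h was the lowest of the 3 glucose-limited ones for 17 of the 33 genes in IMD010 (51.5%, against 41.7% of all 5232 genes) and for 22 in CBS11895 (66.7%, against 38.6%). In IMD010 this group is the pair of cultures that stood apart. The highest group in IMD010 was the retentostat for 11 of the 33 genes (33.3%, against 34.3% of all), 0.025 per h for 16 (48.5%, against 25.3%) and 0.1 per h for 6 (18.2%, against 40.5%). In CBS11895 it was the retentostat for 14 (42.4%, against 31.2% of all), 0.025 per h for 13 (39.4%, against 30.8%) and 0.1 per h for 6 (18.2%, against 38.0%). The orders are given as counts without a test. The median range was 0.60 in IMD010 and 0.65 in CBS11895, against 0.78 and 0.56 over all 5232 genes, so that in CBS11895 the 33 genes were no more level than genes in general.

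The limits of the rule divide a continuous distribution. Just inside the margin lay HPODL_01110 (2.04), HPODL_00486 (2.10) and HPODL_03366 (2.15), and just outside, with a range below 1, HPODL_02857 (1.89), HPODL_03354 (1.86) and HPODL_01980 (1.85). In the study HPODL_03354 was taken as the cytochrome c peroxidase gene, by orthology to S. cerevisiae CCP1. Just inside the limit on the range were HPODL_04511 (0.979), HPODL_04241 (0.945) and HPODL_04540 (0.923), and just outside, with a margin of 2 or more, HPODL_01817 (1.04), HPODL_01423 (1.05) and HPODL_04602 (1.13). HPODL_02857 also came close to the limit on the range, at 0.999. With the range allowed to reach 1.5 the rule found 54 genes.

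Which of the 33 were found depended on the disparate IMD010 chemostats at 0.1 per h. Culture 1 was the higher of the pair for 25 of the 33 genes, with the largest log2 differences in HPODL_04423 (1.16, 315 and 141 FPKM), HPODL_03366 (1.15, 72859 and 32902 FPKM) and HPODL_04540 (0.90, 4112 and 2202 FPKM). Without culture 1 the rule gave 36 genes, of which 28 were among the 33. The genes lost were HPODL_00486, HPODL_00797, HPODL_01389, HPODL_04241 and HPODL_04511. Without culture 2 it gave 27 genes, all among the 33, with HPODL_00509, HPODL_03366, HPODL_04127, HPODL_04423, HPODL_04540 and HPODL_04803 lost. The remaining 22 genes, L-arabinitol 4-dehydrogenase, HPODL_00730, the transaminase and the isocitrate dehydrogenase among them, were found either way.

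Whether a few of the 33 genes, with margins of 2.04 to 2.77, were found depended on the removal of a trend on length. The cause was not tested. The annotated lengths of the 33 genes had a median of 1266 bp (450 to 3198), against 1209 bp over all genes considered, and 7 of the 33 were of at most 700 bp. The median difference of these 7 was 2.98 in IMD010 and 3.31 in CBS11895, and that of the 26 longer genes was 3.95 in IMD010 and 3.01 in CBS11895. When a smooth trend on length was removed from each sample, 29 of the 33 genes were found again, and HPODL_00486, HPODL_01110, HPODL_02244 and HPODL_04195, all among the 7 short genes, were not.

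Some of the 33 lay beside genes of similar course, a point looked at by position after the values were seen. No 2 of the 33 were direct neighbours. A direct neighbour past the margin was found for 4 of them (12.1%), against 18 of all 113 genes past the margin (15.9%) and 3.96% of all genes considered. On chromosome I, the sorbitol dehydrogenase HPODL_00131 and the lactose permease HPODL_00134 enclosed HPODL_00132, a hypothetical protein (margin 2.52, range 1.25), and HPODL_00133, annotated as NADP-dependent mannitol dehydrogenase (margin 2.18, range 1.17), a polyol enzyme as well. All 4 genes thus passed the margin, and the inner pair missed the limit on the range by little. Their differences ran from 3.48 to 4.16 in IMD010 and from 2.42 to 2.96 in CBS11895.

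On chromosome II, HPODL_04540 followed HPODL_04537 (margin 5.14, range 1.28), HPODL_04538 (margin 5.43, range 1.89) and HPODL_04539 (margin 2.97, range 1.42). HPODL_04538 was graded, with a range of 1.88 in IMD010 and 1.89 in CBS11895. HPODL_04540 had a range of 0.35 in CBS11895 and 0.92 in IMD010, just inside the limit, and in IMD010 both genes were lowest in retentostats. The means of HPODL_04538 were 109 FPKM in retentostats, 225.5 FPKM at 0.025 per h, 402 FPKM at 0.1 per h and 0.815 FPKM in batch in IMD010, and 119 FPKM, 241 FPKM, 442 FPKM and 1.77 FPKM in CBS11895. Further along the same chromosome HPODL_04601 stood next to HPODL_04602 (margin 3.92, range 1.13). By chromosome, 10 of the 33 genes lay on chromosome III, or 1.36% of its genes considered, and the share of the other 6 chromosomes was 0.228% to 0.759%. Whether the counting used strand is not given in the sources used here, so it is not known if reads of neighbours that overlap on opposite strands were kept apart.

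**Figure D4:**
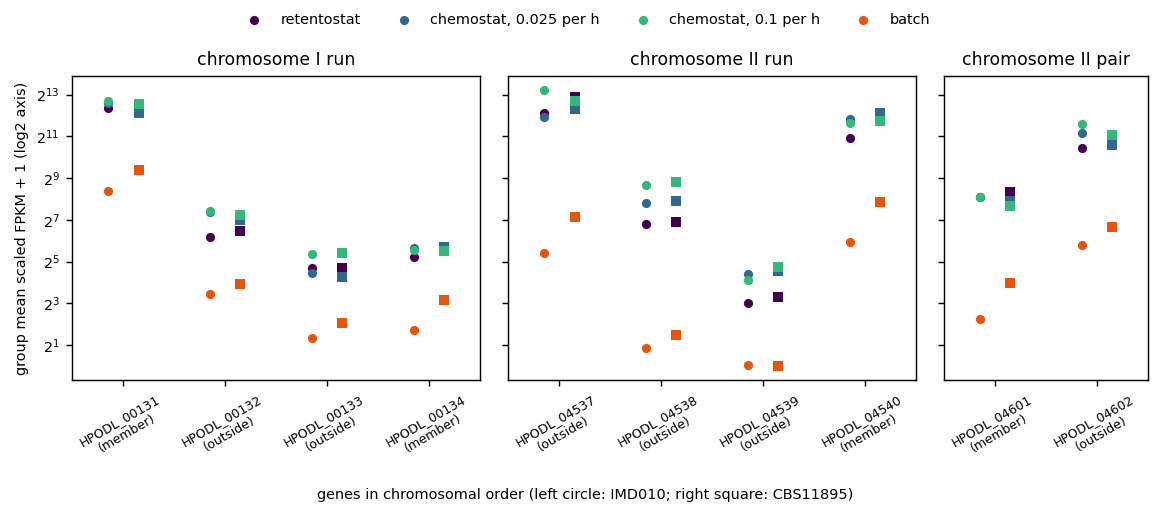
Group means (scaled FPKM + 1, log2 axis) of neighbouring genes in chromosomal order, for IMD010 (circles, left) and CBS11895 (squares, right), coloured by culture condition; genes of the 33 are marked as member, their neighbours as outside. In every gene shown the batch mean lies below the 3 glucose-limited means, and the glucose-limited means of HPODL_04538 are spread over a range of 1.89.

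Other lists of genes drawn up from product names held none of the 33, of which only the 19 with a product name could be listed. This was so for 15 genes of peroxisome biogenesis and membrane (2 past the margin), 5 of fatty acid beta-oxidation and the carnitine shuttle, 18 of the respiratory chain and ATP synthase, 8 against reactive oxygen species, 9 of autophagy and vacuolar proteolysis, 16 of storage carbohydrate and heat shock (1 past the margin) and 34 transcription regulators. HPODL_03354, the cytochrome c peroxidase gene named above, had no product name here and was not on the list against reactive oxygen species. Its margin was 1.86 and its range 0.72. The 29 subunits of complex I had median differences of 1.27 in IMD010 and 1.40 in CBS11895, higher under glucose limitation. Their margins were -0.20 to 1.42, all short of the limit. Where the margin was below 0, as for NUBM (-0.13), a glucose-limited group lay below batch in at least 1 strain. For the 68 ribosomal proteins, listed for comparison, the median difference was -0.92 in IMD010 and 1.25 in CBS11895, of unlike sign. Over all considered genes of up to 700 bp it was 0.06 in IMD010 and 1.22 in CBS11895. Whether transcript length bore on the ribosomal values was not tested.

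Whether the loss of complex I function altered the level of the 33 genes was asked within each culture condition, with limma on all 5232 genes (Benjamini-Hochberg FDR under 0.05 and an absolute log2 fold change above 1). Strain differences within a glucose-limited condition were not a criterion of the rule. The levels behind them entered through the margin and the range, so these differences are not independent of the selection. In batch they are not independent of it either, because the batch level of each strain enters its margin. The smaller margin was that of CBS11895 for 22 of the 33. Comparisons in different conditions share no samples but do share 1 estimate of the spread.

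In retentostats 0 of the 33 were called higher in IMD010 and 1 lower, against 0.650% and 0.937% of all genes. At 0.025 per h the counts were 0 higher and 1 lower, against 0.478% and 0.229%. At 0.1 per h they were 0 higher and 2 lower, against 0.975% and 0.268%. In batch they were 0 higher and 7 lower (21.2% of the 33), against 20.1% and 16.3%. At an unadjusted p under 0.05 by limma, 13 of the 33 (39.4%, against 15.2% of all genes) differed in either direction in retentostats, 12 (36.4%, against 14.2%) at 0.025 per h, 11 (33.3%, against 40.4%) at 0.1 per h and 21 (63.6%, against 75.0%) in batch. These p-values rest on the shared spread, which includes the IMD010 cultures at 0.1 per h that stood apart. The median log2 difference between those cultures was 0.373 over the 33 and 0.657 over all genes. In IMD010 batch it was 0.245 and 0.066. Whether this bore on the shares was not tested. The median strain difference of the 33 was -0.06, 0.04, 0.03 and -0.43 on the log2 scale from retentostat to batch, and that of all genes was 0, -0.02, 0.02 and -0.17. The batch shares moved with the scaling. On the deposited values without further scaling the median of all genes in batch was 0.13 and that of the 33 was -0.15, and 1 of the 33 was called higher (3.03%) and 5 lower (15.2%), against 25.9% and 5.75% of all genes. With the length trend removed, 0 were called higher and 10 lower (30.3%), against 15.4% and 17.2%. How the 33 compared with all genes in batch was therefore not the same under each scaling. Whether the strain difference itself changed between conditions was not tested.

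**Figure D5:**
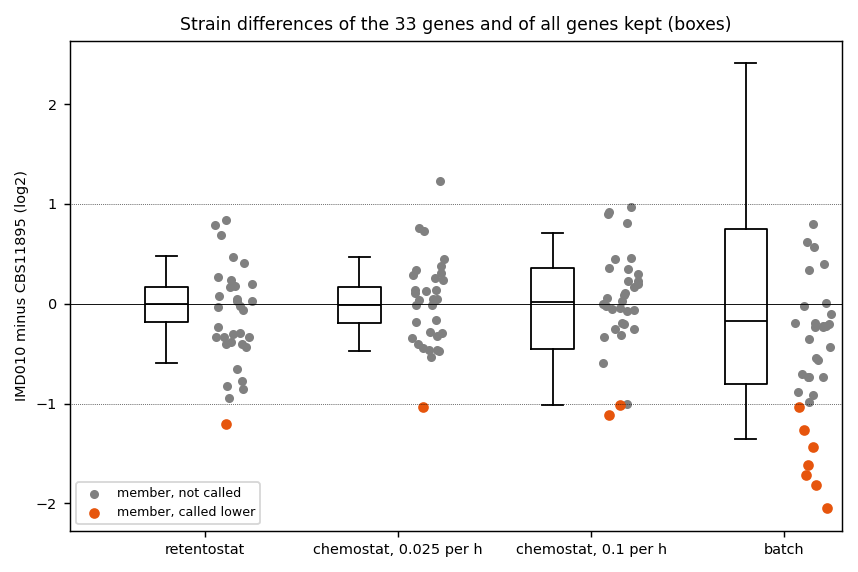
IMD010 minus CBS11895 (log2 of scaled FPKM + 1, limma) in each culture condition for the 33 genes (points; orange, called lower) and for all 5232 genes considered (boxes, quartiles and median; whiskers, 5th to 95th percentile), with dotted lines at 1 and -1. No gene of the 33 was called higher, and the 7 called lower in batch lie between -2.05 and -1.03.

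HPODL_01389, whose values are given above, was called lower in all 3 glucose-limited conditions. Its log2 fold change was -1.20 (SE 0.22, limma FDR 0.0133) in retentostats, -1.03 (SE 0.22, FDR 0.0475) at 0.025 per h and -1.01 (SE 0.22, FDR 0.0362) at 0.1 per h. In batch it was -0.88 (SE 0.22, limma FDR 0.00454), short of the limit on the fold. All these calls were close to a limit. The one in retentostats was lost without IMD010 culture 1 (log2 -0.93, FDR 0.134), CBS11895 culture 1 (FDR 0.0857) or CBS11895 culture 2 (FDR 0.127), whereas the difference itself stayed between -1.47 and -0.66 over the glucose-limited conditions and all single omissions. At 0.025 per h the call was lost under 12 of the 16 single omissions, and at 0.1 per h under 11.

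The transaminase HPODL_00888 was lower in IMD010 at 0.1 per h, at 306 and 271 FPKM in IMD010 and 605 and 638 FPKM in CBS11895 (log2 fold change -1.11, SE 0.13, limma FDR 0.00171). This call held under all 16 single omissions and was lost when only the 4 samples of this condition were fitted (limma FDR 0.579), a fit in which no gene of the 5232 was called at 0.1 per h. In the other conditions its log2 fold changes were -0.38 in retentostats, -0.32 at 0.025 per h and -0.35 in batch, with FDR values of 0.159, 0.284 and 0.0309 by limma, none past both limits.

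In the opposite direction, HPODL_03061 lay above CBS11895 in both IMD010 cultures of every glucose-limited condition and below the limit on the fold, with log2 fold changes of 0.79 (limma FDR 0.0213) in retentostats, 0.76 (FDR 0.0445) at 0.025 per h and 0.92 (FDR 0.0142) at 0.1 per h. In batch the difference was -0.22 (limma FDR 0.237). Phosphoenolpyruvate carboxykinase had the largest positive difference, 1.23 at 0.025 per h (6472 FPKM in IMD010 and 2807 FPKM in CBS11895), which did not pass the FDR limit (limma FDR 0.0804). It was called without either IMD010 culture at 0.1 per h (FDR 0.00483 without culture 1 and 0.00486 without culture 2), although these cultures are not part of the contrast and enter only through the shared spread. Both genes were picked after their values were seen.

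In batch the 7 genes called lower in IMD010 included 3 named above for the use of sugars and polyols. Others named there were not called in batch. These were L-arabinitol 4-dehydrogenase (log2 fold change -0.20, limma FDR 0.585), the D-galactonate transporter (0.40, FDR 0.239) and the glucose-6-phosphate 1-epimerase (-0.43, FDR 0.00604). HPODL_03366 had 1629 and 2578 FPKM in IMD010 and 10423 and 6880 FPKM in CBS11895 (log2 fold change -2.05, SE 0.35, limma FDR 0.000508). HPODL_04540 had the batch values given above (log2 fold change -1.81, SE 0.35, limma FDR 0.00101). In each of the 7, both IMD010 batch cultures lay below both CBS11895 ones. The same held for genes of the set that were not called, the glucose-6-phosphate 1-epimerase among them. It therefore adds no support to the calls, and its share over all genes considered was not counted.

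The myo-inositol transporter had 148 ± 73.2 FPKM in IMD010 batch and 430.2 ± 74.4 FPKM in CBS11895 batch (SD, n = 2 each, log2 fold change -1.61, limma FDR 0.00102). The lactose permease had 2.03 and 2.59 FPKM in IMD010 and 7.24 and 8.54 FPKM in CBS11895 (-1.43, FDR 0.000127), and the sorbitol dehydrogenase had 277 and 396 FPKM in IMD010 and 723 and 632 FPKM in CBS11895 (-1.03, FDR 0.000641). The call of the sorbitol dehydrogenase was close to the limit on the fold and was lost on unscaled values (-0.71), without IMD010 batch culture 1 (-0.78) and without CBS11895 batch culture 1 (-0.93). HPODL_04601 had 3.83 and 3.81 FPKM in IMD010 and 15.1 and 14.4 FPKM in CBS11895 (-1.71, FDR 9.07e-05), and HPODL_04520 had 53.0 and 72.5 FPKM in IMD010 and 161 and 139 FPKM in CBS11895 (-1.26, FDR 0.000159). The call of HPODL_04520 was lost on unscaled values (-0.95) and with the length trend removed (-0.96). The largest positive batch difference was that of isocitrate dehydrogenase, 0.80 (SE 0.23, limma FDR 0.00811), within the limit on the fold. Under glucose limitation none of the 7 was called in any of the 3 conditions.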

How the data were processed

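RNA of 16 samples (2 independent cultures in each of 8 groups of strain and culture condition) was analysed. The authors aligned reads to the CBS11895 (DL-1) RefSeq assembly with STAR 2.5.3a, removed ambiguously mapped reads, used HTSeq to count the rest per transcript and deposited the result as FPKM without a filter on low values. Removal of ambiguous reads can lower the values of genes with near-identical copies. The labels name the TruSeq RNA V2 kit, whereas the study's methods describe the libraries as strand-specific, and whether strand was used in counting is not given in the sources used here. A TMM factor was not found in the deposited values, which were scaled by total reads alone.

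Values were divided by median-of-ratios factors over the 5287 genes above 0 in all samples. The genes were selected on log2 (group mean + 1) by the margin and range given above. A cap of 200 genes was not reached. The members, lists and tests were chosen with earlier results of these data known. Strains were compared with limma 3.58.1 (R 4.3.3) on log2 (value + 1) in 1 fit of all 16 samples without a block, adjusted over 5232 genes. Count tests were not used, as the deposited unit is FPKM. The 4 samples of a condition enter each contrast and the 8 groups share the spread.

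The genes named were the 10 with the largest margin, up to 3 per list, the 3 on each side of both limits, up to 2 called per contrast and direction with cultures not overlapping, and the 3 with the largest difference between the IMD010 cultures at 0.1 per h. Genes beyond these were named after their values were seen. Product names and the subunits of complex I came from the study's supplementary tables, and coordinates and lengths from RefSeq for the same assembly. Columns of fold changes there were not used. Promoter sequences were not used here. The fit and the rule were tested on simulated data. Alternatives were TMM factors (trims of 30% and 5%), unscaled values, pseudocounts of 0.1 and 10, no filter, other margins and ranges, a length trend removed (local regression, span 0.3), the 4 samples alone, a replicate block, an FDR under 0.001 with an absolute log2 fold change above 2, an intensity trend in the prior variance, and omission of each sample. Python 3.11.15 and statsmodels 0.14.6 were used.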

Additional observations from a re-analysis of the deposited data

How the results depend on the processing

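The 33 genes found by the rule became 34 with TMM factors (33 shared), 39 unscaled (30 shared), 32 with a pseudocount of 0.1, 28 with 10, 33 without a filter and 34 with the length trend removed (29 shared). A margin of 1 gave 104 genes and a margin of 3 gave 13, and a range below 0.5 gave 6 and below 1.5 gave 54. Single omissions gave 27 to 36. Of the members lower in IMD010, the 1 in retentostats became 0 under stricter limits (FDR 0.001, absolute log2 fold change 2), and 0 to 1 under single omissions. The 1 at 0.025 per h became 0 with TMM factors, unscaled, with a pseudocount of 0.1, without a filter, with the stricter limits and with the replicate block, and 0 to 1 under single omissions. The 2 at 0.1 per h became 1 with TMM factors, 0 in the fit of 4 samples, 0 with the stricter limits and 1 to 3 under single omissions. The 7 in batch became 1 with the stricter limits and 6 to 10 under single omissions. Of the 0 members higher in IMD010, 1 appeared at 0.025 per h unscaled and in the fit of 4 samples (phosphoenolpyruvate carboxykinase), and 1 in batch unscaled (isocitrate dehydrogenase). Single omissions gave 0 to 1 at 0.025 per h, 0 to 3 at 0.1 per h, 0 to 1 in batch and 0 in retentostats. The 3 at 0.1 per h, without IMD010 culture 2 of that group, were HPODL_00509, HPODL_00863 and HPODL_04423, the 1 without its culture 1 was HPODL_03061, and the 1 in batch, without CBS11895 batch culture 2, was HPODL_01327. No called difference changed sign under any alternative. For these changes the cause was not tested.

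The labels do not say that equally numbered cultures were paired. The correlation over genes of the difference between cultures 1 and 2 across the strains was -0.03 in retentostats, 0.15 at 0.025 per h, 0.29 at 0.1 per h and 0 in batch. With the replicate block HPODL_01389 at 0.025 per h had an FDR of 0.0675 by limma, and this was the only call among the 33 that the block changed. With 2 cultures per group no sample could be tested for standing apart within its group. Low batch reads limit the folds of HPODL_00863 and HPODL_00730.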
